A study of Homo sapiens with 18 samples.

Results

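The genes described here take up, store, export and sense cellular iron: TFRC, TF, STEAP3, SLC11A2, FTH1, FTL, NCOA4, SLC40A1, ACO1 and IREB2. They were chosen by name for their known roles, at a time when earlier results of these data were known, and are 10 of the 28277 genes in the count table. All 10 passed the filter on low counts. RNA-seq was made from OVCAR3-KRAB, a line derived from the established ovarian cancer line OVCAR3 that stably carries lentiviral dCas9-KRAB, a repressor which CRISPR interference (CRISPRi) directs to a promoter. The control clone carried sgCtl, a guide against the Gal4 promoter, and the knockdown (KD) clones carried sgXIST7 or sgXIST9, guides against the promoter of the long noncoding RNA XIST. Each line was kept in normoxia or for 24 h in a chamber at 1% oxygen (hypoxia), which gave 6 groups of 3 libraries, 18 in all. All groups shared the dCas9-KRAB transgene, the guide vector and the antibiotic selections for both. Each line was monoclonal, so that an effect of a guide and a property of its clone cannot be told apart.

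Cells take up iron bound to transferrin (TF) through the transferrin receptor (TFRC), reduce it in endosomes with the ferrireductase STEAP3 and move it into the cytosol through the divalent metal transporter SLC11A2 (DMT1). Iron that is not used is stored in ferritin, a shell of heavy (FTH1) and light (FTL) chains, which NCOA4 carries to lysosomes for release, or it leaves the cell through ferroportin (SLC40A1). Balance is kept largely after transcription. When iron is scarce, the iron regulatory proteins ACO1 (IRP1) and IREB2 (IRP2) bind a stem-loop called the iron-responsive element (IRE), which blocks translation when it lies in a 5′ UTR and protects the transcript from decay when it lies in the 3′ UTR of TFRC. RNA counts can therefore reflect a change in TFRC stability, but they do not separate it from a change in transcription. The translational control of ferritin and ferroportin is not measured by RNA counts.

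The IRE-like sites of the members are shown here because the iron regulatory proteins act through them, in the 5′ UTR on translation and in the 3′ UTR of TFRC on decay. The search used a bulged C, 5 bases of any kind and the loop CAGTGN, in annotated UTRs of hg38, with at least 4 of 5 base pairs in the upper stem and at least 3 of 5 in the lower stem, G–T pairs allowed. Capitals mark the loop. TFRC, on the minus strand of chromosome 3, held 4 matches in its 3′ UTR:
TFRC 3′ UTR, chr3:196050464-196050490: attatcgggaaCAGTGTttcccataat
TFRC 3′ UTR, chr3:196050511-196050537: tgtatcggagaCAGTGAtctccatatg
TFRC 3′ UTR, chr3:196050576-196050602: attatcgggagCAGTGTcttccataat
TFRC 3′ UTR, chr3:196050980-196051006: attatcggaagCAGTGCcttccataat
The ferritin chains and ferroportin each held 1 match in the 5′ UTR:
FTH1 5′ UTR, minus strand, chr11:61967575-61967601: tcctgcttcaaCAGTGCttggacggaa
FTL 5′ UTR, plus strand, chr19:48965336-48965362: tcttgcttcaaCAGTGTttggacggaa
SLC40A1 5′ UTR, minus strand, chr2:189580662-189580688: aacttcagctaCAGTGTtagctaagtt
IREB2 and TF each held 1 match in the 3′ UTR:
IREB2 3′ UTR, plus strand, chr15:78500970-78500996: atttgctttcaCAGTGAtgagtgagag
TF 3′ UTR, plus strand, chr3:133792674-133792700: gaatgcattttCAGTGAaagattataa

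The loop of the TFRC matches varied only in its last base, and the FTH1 and FTL matches shared most of their letters. No match was found in STEAP3, SLC11A2, NCOA4 or ACO1 with these letters. The pattern occurred in a 5′ UTR of 86 of 19217 genes (0.448%) and in a 3′ UTR of 304 of 19226 genes (1.58%), and a match is a description of the letters, not evidence of binding. The core of the hypoxia response element (ACGTG or GCGTG, either strand) was also searched in RefSeq promoters of 300 bases. It was found in 8 of the 15 promoters of the 9 members matched there, beside 48.4% of all 35116 promoters. The members with it in any of their promoters were TF, TFRC, ACO1, SLC11A2, IREB2 and FTL. For TF it lay in the promoter at chr3:133661748-133662047 and not in that at chr3:133746143-133746442. IREB2 and SLC11A2 also had a promoter without it.

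Total counts ranged from 11794375 to 24906936 per library. XIST had a mean of 479 CPM (read counts scaled to library size with TMM factors) in sgCtl normoxia, 0.161 in sgXIST7 normoxia and 45.0 in sgXIST9 normoxia, and of 171, 0.117 and 23.3 CPM in hypoxia. Of 8 known hypoxia-induced genes, 6 rose in sgCtl (18.8% of all genes) and 7 in each KD clone (23.5% in sgXIST7 and 23.1% in sgXIST9) at an adjusted p under 0.01. EGLN3 did not pass in any clone. ADM did not pass in sgCtl, where its normoxia mean was 287 CPM against 8.14 CPM in sgXIST7 and 7.0 CPM in sgXIST9. CA9, with at most 7 counts in a normoxia library, passed the filter on low counts through hypoxia libraries only, so that it could only rise. The hypoxia libraries numbered 3 were the furthest from the other libraries of their groups in all 3 clones. Their root mean square log2 difference to the other libraries of the group was 0.401 to 0.709, against 0.331 to 0.366 between libraries 1 and 2 of the hypoxia groups. In sgXIST7 the value of 0.401, to hypoxia library 2, lay below the 0.416 between normoxia libraries 1 and 2. Results resting on hypoxia are also given without the hypoxia libraries numbered 3 where this changes a call. Of the markers of a serous ovarian carcinoma, EPCAM, KRT18, KRT8 and PAX8 were present, whereas MUC16 had 0 counts in 16 of the 18 libraries and WT1 reached at most 14 counts. Erythroid, endothelial and leukocyte markers summed to at most 0.177, 0.684 and 55.9 CPM. The leukocyte sum was nearly all CD68 (10.8 to 55.8 CPM), while PTPRC and CD14 reached at most 1 and 6 counts. The fibroblast list summed to 360 to 1062 CPM, nearly all of it COL3A1, while COL1A1 and DCN did not exceed 7.08 and 2.66 CPM.

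Levels differed widely among the members. Per kilobase of gene model, FTL was the most abundant in all 6 groups, with a mean of 1082 CPM per kb in sgCtl normoxia, and FTH1 came next with 223.6. TFRC followed with 69.2 CPM per kb, NCOA4 with 38.4 and STEAP3 with 15.5. The next values were 10.4 CPM per kb for IREB2 and 10.2 for SLC11A2, which overlapped between libraries, and 8.43 for ACO1. SLC40A1 had 1.64 and TF 0.0171 CPM per kb, so that TF rested on 5 or 6 counts in each sgCtl normoxia library. Within sgXIST7, STEAP3 had rank 5 in normoxia and rank 8 in hypoxia. In sgCtl it had ranks 5 and 6, and in sgXIST9 it had rank 8 under both conditions. IREB2 had rank 6 in sgCtl normoxia and rank 8 in sgCtl hypoxia, and the TFRC and FTH1 levels per kb overlapped in sgXIST7 hypoxia. In bulk RNA, a change in the share of cells expressing a gene and a change in the amount per cell cannot be told apart.

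**Figure D1:**
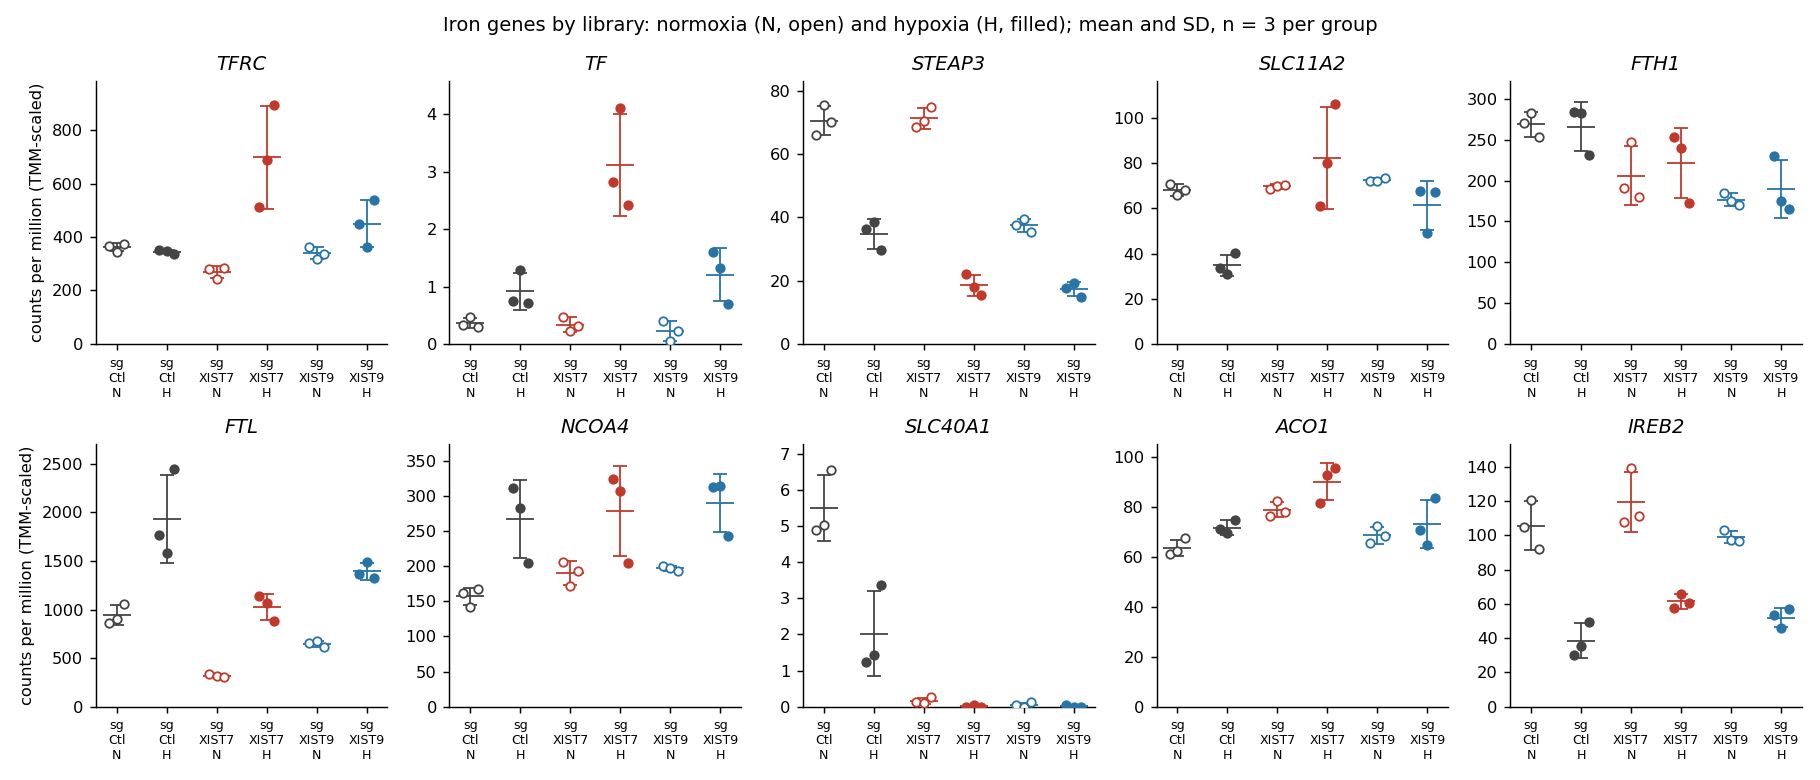
CPM (TMM-scaled, y axis starting at 0) of the 10 iron genes in each of the 18 libraries, grouped by clone and by normoxia (N, open points) or hypoxia (H, filled points); the horizontal lines and bars are the mean and SD of 3 libraries. FTL was higher and STEAP3 and IREB2 were lower in hypoxia in every clone without overlap, whereas SLC40A1 was near 0 in all KD libraries.

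The response of iron genes to hypoxia was compared with normoxia within each clone. FTL rose, and STEAP3 and IREB2 fell, in all 3 clones, whereas FTH1 and ACO1 did not pass the test in any. In sgCtl, 2 members rose (18.8% of all 14938 genes tested rose) and 4 fell (18.8% fell) at an adjusted p under 0.01. In sgXIST7, 3 rose (23.5% of all genes) and 2 fell (23.2%), and in sgXIST9, 2 rose (23.1%) and 2 fell (19%). TF was among those that rose in both KD clones, and it passed the filter on low counts through hypoxia libraries only. With an absolute log2 fold change above 1 as well, 4 members were called in sgCtl (19.7% of all genes), 4 in sgXIST7 (27.3%) and 3 in sgXIST9 (23.3%). The median log2 fold change of the members was -0.04, 0.21 and 0.10, beside 0.02, 0.01 and 0.09 over all genes. Over the 3 clones, 15 of the 30 tests on members passed, counting both directions. The shares of all genes that rose or fell are for 1 direction each and are not comparable with this count. The members that passed in neither direction numbered 4 of 10 in sgCtl, 5 in sgXIST7 and 6 in sgXIST9. Of all 14938 genes tested, 9327, 7957 and 8650 passed in neither direction in these clones. Without the hypoxia libraries numbered 3, 6 members passed in sgCtl, 6 in sgXIST7 and 5 in sgXIST9, with NCOA4 added in both KD clones. The share of all genes was not determined for that setting.

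**Figure D2:**
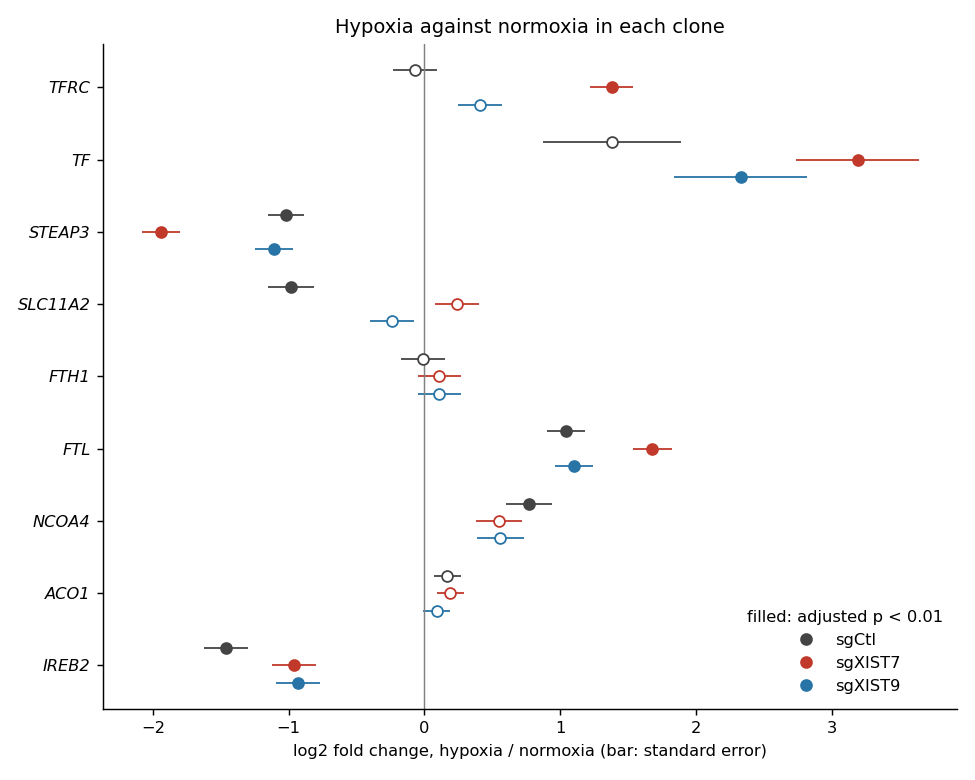
Log2 fold change of hypoxia over normoxia (x axis, with standard errors) for 9 iron genes in each clone; filled points passed the adjusted p of 0.01. SLC40A1 is left out because the KD clones had too few counts for a fold. FTL, STEAP3 and IREB2 passed in all 3 clones, and TFRC ranged from -0.07 in sgCtl to 1.38 in sgXIST7.

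The KD clones were then compared with sgCtl under the same oxygen. In normoxia, the members that passed were all lower in the KD clones. These were 2 members in sgXIST7, FTL and SLC40A1 (6.1% of all genes were lower), and 4 in sgXIST9, STEAP3, FTH1, FTL and SLC40A1 (6.6%). SLC40A1 passed the filter on low counts through sgCtl libraries only, so that it could only be lower in the KD clones. When any single sgCtl or sgXIST9 normoxia library was left out the sgXIST9 count was 2, since FTH1 and FTL were lost. None was higher in sgXIST7 (7.39% of all genes were higher) or in sgXIST9 (6.51%) by edgeR or by DESeq2, with 1 and 0 members higher at an unadjusted p under 0.05. With the fold threshold, 2 members were called in sgXIST7 (7.76% of all genes) and 1 in sgXIST9 (7.7%). In hypoxia the KD clones differed from sgCtl in both directions. In sgXIST7, TFRC, TF, SLC11A2 and IREB2 were higher (4 members, 13.9% of all genes) and STEAP3, FTL and SLC40A1 were lower (3 members, 13.7%), and 4 passed the fold threshold (14%). With only the groups compared in the fit, the sgXIST7 count was 3, since TF, STEAP3, FTL and IREB2 were lost. In sgXIST9, SLC11A2 was higher (1 member, 9.65%) and STEAP3 and SLC40A1 were lower (2 members, 8.24%), and 2 passed the fold threshold (9.53%). Without the hypoxia libraries numbered 3, the hypoxia counts were 7 and 4, with IREB2 added in sgXIST9. Both KD clones were compared with the same sgCtl libraries, so that their values are given side by side. The median member log2 fold changes in sgXIST7 and sgXIST9 were -0.03 and -0.32 in normoxia and 0.20 and 0.07 in hypoxia, beside -0.02 to -0.01 over all genes.

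**Figure D3:**
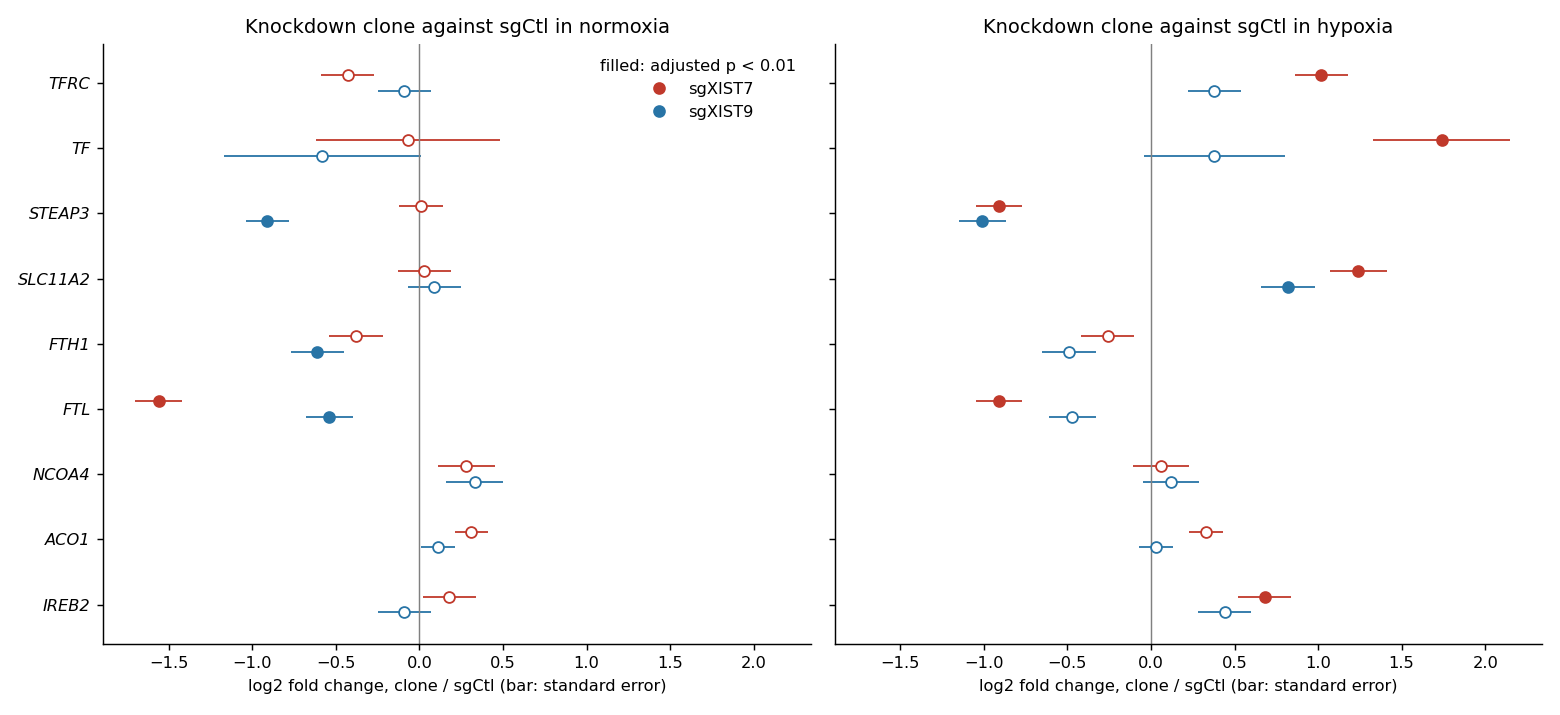
Log2 fold change of each KD clone over sgCtl (x axis, with standard errors) in normoxia (left) and hypoxia (right) for 9 iron genes; filled points passed the adjusted p of 0.01. SLC40A1 is left out because its KD values lay at or near the detection limit. FTL was lower in both clones in normoxia, a call that in sgXIST9 did not outlast leaving out any single library, and SLC11A2 was higher in both in hypoxia, with values of 1.24 and 0.82.

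Among the uptake genes, TFRC (chr3:196049284-196082090) rose in hypoxia in sgXIST7. In sgCtl it was 366, 346 and 373 CPM in normoxia and 350.3, 347 and 338 CPM in hypoxia, and these libraries overlapped. In sgXIST7 it was 279.8, 241 and 284 CPM in normoxia and 512, 688 and 895 CPM in hypoxia, so that every hypoxia library lay above every normoxia library. In sgXIST9 it was 363, 318 and 337 CPM in normoxia and 450.1, 363 and 537 CPM in hypoxia, with overlap. The log2 fold change in hypoxia was 1.38 (SE 0.16, adjusted p = 1.98e-06) in sgXIST7, 0.41 (SE 0.16, adjusted p = 0.042) in sgXIST9 and -0.07 (SE 0.16, adjusted p = 0.751) in sgCtl. Only the sgXIST7 value passed. The mean in hypoxia was 698 ± 192 CPM (SD, n = 3) in sgXIST7 against 345 ± 6.5 CPM in sgCtl, a log2 difference of 1.02 (SE 0.16, adjusted p = 0.000123). In normoxia sgXIST7 stood at 269 ± 23.5 CPM and sgCtl at 362 ± 14.4 CPM without overlap, and the log2 difference of -0.43 did not pass (adjusted p = 0.0705). It passed with only the groups compared in the fit (-0.41, adjusted p = 0.00612).

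TF, the transferrin that TFRC binds and a protein made mainly by liver, was scarcely transcribed in these cells. It had 5, 6 and 5 counts in sgCtl normoxia and 12, 26 and 8 in sgCtl hypoxia. In sgXIST7 it had 11, 4 and 7 counts in normoxia and 59, 91 and 28 in hypoxia, and in sgXIST9 9, 1 and 4 counts and then 35, 29 and 11. No hypoxia library overlapped with the normoxia libraries of its clone on the CPM scale. TF passed the filter on low counts through its hypoxia libraries only, so that a test of hypoxia against normoxia could only show a rise. TF rose by 3.19 on the log2 scale in sgXIST7 (SE 0.45, adjusted p = 1.18e-05) and by 2.33 in sgXIST9 (SE 0.49, adjusted p = 0.000742), while the value of 1.38 in sgCtl did not pass (SE 0.51, adjusted p = 0.0309). In hypoxia TF was higher in sgXIST7 than in sgCtl by 1.74 (SE 0.41, adjusted p = 0.00293), and the call was lost without sgCtl hypoxia library 1 (1.60, adjusted p = 0.0189), without sgXIST7 hypoxia library 2 (1.48, adjusted p = 0.0213) or with only the groups compared in the fit (1.74, adjusted p = 0.0137). The gene model of TF spans 21225 exonic bases and shares 122 of them with SRPRB on the same strand, a gene with 30350 counts over all libraries, and the part of shared reads in the TF counts was not tested.

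STEAP3 (chr2:119223834-119265651), the endosomal ferrireductase, fell in every clone. In sgCtl it was 66.1, 75.4 and 70.3 CPM in normoxia and 36.4, 38.6 and 29.6 CPM in hypoxia. The sgXIST7 values were 68.5, 70.4 and 75.0 CPM in normoxia and 22.2, 17.9 and 15.4 CPM in hypoxia. In sgXIST9 it was already low in normoxia, at 37.6, 39.6 and 35.4 CPM, and 17.8, 19.2 and 15 CPM in hypoxia. The groups did not overlap in any clone. The log2 fold change was -1.02 (SE 0.13, adjusted p = 1.05e-05) in sgCtl, -1.94 (SE 0.14, adjusted p = 6.23e-09) in sgXIST7 and -1.11 (SE 0.14, adjusted p = 3.58e-06) in sgXIST9. In normoxia STEAP3 was lower in sgXIST9 than in sgCtl by 0.91 on the log2 scale (log2 fold change -0.91, adjusted p = 7.27e-05), whereas sgXIST7 and sgCtl differed by 0.01 (adjusted p = 0.959). The KD clones themselves differed in normoxia (sgXIST7 over sgXIST9, log2 0.93, adjusted p = 0.000142). In hypoxia both KD clones had less STEAP3 than sgCtl, with log2 differences of -0.91 (adjusted p = 6.7e-05) and -1.01 (adjusted p = 2.95e-05), and means of 18.5 ± 3.44 and 17.3 ± 2.18 CPM that overlapped with each other. The sgXIST7 call was lost with only the groups compared in the fit (-0.91, adjusted p = 0.0125).

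SLC11A2 (chr12:50979783-51028242), which carries ferrous iron out of the endosome, fell in sgCtl under hypoxia and did not pass in the KD clones. The normoxia values were 71.0, 65.8 and 68.1 CPM in sgCtl, 68.7, 70.0 and 70.4 CPM in sgXIST7 and 72.2, 72.2 and 73.5 CPM in sgXIST9. In hypoxia sgCtl had 33.4, 30.9 and 40.1 CPM, below all its normoxia libraries. The KD clones had 60.9, 80.0 and 106 CPM (sgXIST7) and 67.9, 48.9 and 67.4 CPM (sgXIST9), all above the sgCtl hypoxia libraries. The hypoxia log2 fold change was -0.98 (SE 0.17, adjusted p = 0.000119) in sgCtl, 0.24 (SE 0.16, adjusted p = 0.221) in sgXIST7 and -0.24 (SE 0.16, adjusted p = 0.216) in sgXIST9. Against sgCtl in hypoxia, SLC11A2 was higher by 1.24 (SE 0.17, adjusted p = 2.04e-05) in sgXIST7 and by 0.82 (SE 0.16, adjusted p = 0.00111) in sgXIST9. With only the groups compared in the fit, the sgXIST9 call was lost (0.83, adjusted p = 0.0236). Counts per gene do not separate the SLC11A2 transcripts, which are known to differ in whether their 3′ UTR holds an IRE.

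The ferritin chains did not move together. FTL (chr19:48965309-48966879) was 862, 904 and 1060 CPM in sgCtl normoxia and 1771, 1587 and 2447 CPM in sgCtl hypoxia. The sgXIST7 values were 338, 314 and 309 CPM and then 1138, 1065 and 880 CPM, and in sgXIST9 it was 654, 673 and 615 CPM and then 1367, 1489 and 1322 CPM. Every hypoxia library lay above every normoxia library of its clone. FTL rose by 1.04 (SE 0.14, adjusted p = 1.36e-05) in sgCtl, by 1.68 (SE 0.14, adjusted p = 4.53e-08) in sgXIST7 and by 1.10 (SE 0.14, adjusted p = 5.52e-06) in sgXIST9 on the log2 scale. sgXIST7 was lower than sgCtl by 1.56 in normoxia (log2 fold change -1.56, SE 0.14, adjusted p = 4.8e-07) and by 0.91 in hypoxia (-0.91, SE 0.14, adjusted p = 8.49e-05), and lower than sgXIST9 in normoxia (-1.02, adjusted p = 9.9e-05). The hypoxia call was lost with only the groups compared in the fit (-0.91, adjusted p = 0.0138). sgXIST9 was lower than sgCtl in normoxia (-0.54, SE 0.14, adjusted p = 0.0098), but this call was lost when any single library of either group was left out (-0.60 to -0.45, adjusted p = 0.0147 to 0.0597). In hypoxia the sgXIST9 value of -0.47 did not pass (adjusted p = 0.0168) and passed without sgCtl hypoxia library 2 (-0.60, adjusted p = 0.00479). On all libraries it passed by DESeq2 (-0.51, adjusted p = 0.00235) and with RLE factors (-0.51, adjusted p = 0.00995).

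FTH1 (chr11:61964285-61967634), the ferritin chain with ferroxidase activity, did not pass the test for oxygen in any clone. It was 270.5, 283 and 253 CPM in sgCtl normoxia and 284, 283 and 231 CPM in sgCtl hypoxia. In sgXIST7 it was 192, 247 and 180 CPM (normoxia) and 253, 239.8 and 173 CPM (hypoxia), and in sgXIST9 185, 175 and 170 CPM (normoxia) and 231, 175 and 165 CPM (hypoxia). Normoxia and hypoxia libraries overlapped in every clone, with log2 fold changes of -0.01 (adjusted p = 0.95), 0.11 (adjusted p = 0.577) and 0.11 (adjusted p = 0.591), each with an SE of 0.16. FTH1 was lower in sgXIST9 than in sgCtl in normoxia, 177 ± 7.87 against 269 ± 15.1 CPM without overlap (log2 -0.61, SE 0.16, adjusted p = 0.00997). That call lay at the threshold and was lost when any single library was left out (-0.65 to -0.57, adjusted p = 0.0198 to 0.0427). In hypoxia the difference of -0.49 did not pass (adjusted p = 0.0272). It did pass by DESeq2 (-0.52, adjusted p = 0.00762) and with the replicate number as a block (adjusted p = 0.00576). It also passed without sgXIST9 hypoxia library 1 (-0.65, adjusted p = 0.00939). The counting of FTH1 is less certain than that of other members. Of 50-base windows in its exons, 61.7% occurred once in hg38, against 78.7% for FTL and 91.4% or more for the other members, and processed copies could share its reads. The only listed copy with counts was FTH1P3, with 6 to 39 counts per library. BEST1, on the opposite strand, overlapped 880 exonic bases of FTH1 (73.2% of its gene model) and had 190 counts over all libraries. The strand setting of the counting was not given, and the effect of this overlap on the level and ratios of FTH1 was not tested.

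NCOA4, the receptor that delivers ferritin to lysosomes, rose in sgCtl hypoxia and lay at the threshold in the KD clones. It was 161, 143 and 167 CPM in sgCtl normoxia and 312, 283 and 205 CPM in sgCtl hypoxia without overlap. The sgXIST7 values were 206, 172 and 194 CPM and then 325, 306 and 205 CPM, and hypoxia library 3 fell within the normoxia range. In sgXIST9 it was 201, 197 and 193 CPM and then 313, 314 and 242 CPM without overlap. The log2 fold change was 0.77 (SE 0.17, adjusted p = 0.00124) in sgCtl, 0.55 (SE 0.17, adjusted p = 0.0102) in sgXIST7 and 0.56 (SE 0.17, adjusted p = 0.0101) in sgXIST9. The KD values missed the threshold by little and passed it on all libraries by DESeq2 (0.57, adjusted p = 0.00237 in sgXIST7 and 0.53, adjusted p = 0.00514 in sgXIST9) and without the filter on low counts (adjusted p = 0.00753 and 0.00854). They also passed without the hypoxia libraries numbered 3 (0.74, adjusted p = 3.96e-06 in sgXIST7 and 0.68, adjusted p = 1.24e-05 in sgXIST9), also when only the clone's own library was left out (0.74, adjusted p = 0.000809, and 0.67, adjusted p = 0.00435). Those libraries held the lowest NCOA4 value among the hypoxia libraries of each clone, as they did for FTH1. Against sgCtl, NCOA4 did not pass in either KD clone under either condition (log2 0.28 and 0.33 in normoxia, 0.06 and 0.12 in hypoxia, adjusted p from 0.191 to 0.784), but the sgXIST9 value in normoxia passed with only the groups compared in the fit (0.34, adjusted p = 0.000789).

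SLC40A1 (chr2:189560590-189580811), the only known exporter of cellular iron, was detected at low levels in sgCtl and was near the limit of detection in the KD clones. The counts were 73, 65 and 114 in sgCtl normoxia and 20, 29 and 38 in sgCtl hypoxia. In sgXIST7 they were 3, 2 and 6 in normoxia and 0, 1 and 0 in hypoxia. In sgXIST9 they were 1, 0 and 2 in normoxia and 1, 0 and 0 in hypoxia. No KD library overlapped with the sgCtl libraries of its condition. SLC40A1 passed the filter on low counts through its sgCtl libraries only, so that a test against sgCtl could only show lower KD values. Against a floor of 3 counts per library, SLC40A1 was at least 35.2-fold lower in sgXIST9 than in sgCtl in normoxia, and at least 11.3-fold lower in sgXIST7 and 13.1-fold lower in sgXIST9 in hypoxia, and edgeR passed all of these (adjusted p = 5.38e-07, 7.64e-06 and 7.06e-06). In sgXIST7 normoxia only library 3, with 6 counts, exceeded the floor. The group had 11 counts against 252 in sgCtl, a ratio of 0.0308 after scaling to library size (95% exact binomial interval 0.0152 to 0.0561, counting error only), and it passed in edgeR (adjusted p = 2.03e-06). In sgCtl, SLC40A1 fell from 5.49 ± 0.916 to 2.02 ± 1.17 CPM in hypoxia (log2 -1.48, SE 0.41, adjusted p = 0.00577). This call was lost when any sgCtl library other than hypoxia library 3 was left out (-1.56 to -1.22, adjusted p = 0.0121 to 0.0382). At these counts no hypoxia response could be read in the KD clones.

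The sensors of iron differed in their response. IREB2 (chr15:78437431-78501456) encodes IRP2, which is degraded by the ubiquitin ligase of FBXL5 when iron and oxygen are plentiful. It was 105, 120.4 and 91.9 CPM in sgCtl normoxia and 30.1, 35.7 and 49.7 CPM in sgCtl hypoxia. In sgXIST7 it was 108, 139 and 111 CPM and then 57.7, 66.0 and 60.7 CPM, and in sgXIST9 103, 97.6 and 96.8 CPM and then 53.5, 45.7 and 56.9 CPM. Hypoxia and normoxia did not overlap in any clone. IREB2 fell by 1.46 on the log2 scale in sgCtl (log2 fold change -1.46, SE 0.16, adjusted p = 1.46e-06), by 0.96 in sgXIST7 (-0.96, SE 0.16, adjusted p = 5.92e-05) and by 0.93 in sgXIST9 (-0.93, SE 0.16, adjusted p = 9.67e-05). In hypoxia it was higher in sgXIST7 than in sgCtl by 0.68 (SE 0.16, adjusted p = 0.00279), a call lost without sgCtl hypoxia library 1 (0.52, adjusted p = 0.0214), sgCtl hypoxia library 2 (0.63, adjusted p = 0.0156) or sgXIST7 hypoxia library 2 (0.62, adjusted p = 0.0156), and with only the groups compared in the fit (0.68, adjusted p = 0.0384). The sgXIST9 value of 0.44 did not pass (adjusted p = 0.0466) and passed without the hypoxia libraries numbered 3 (0.59, adjusted p = 0.00485) or without sgCtl hypoxia library 3 alone (0.65, adjusted p = 0.0016).

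ACO1 encodes IRP1, which is a cytosolic aconitase when it carries an iron-sulfur cluster and binds IREs without it. It varied least of the members, with a span of 0.50 on the log2 scale between the lowest and highest group means. The means were 63.7 ± 3.32 and 71.9 ± 2.81 CPM in sgCtl normoxia and hypoxia, 79.0 ± 3.16 and 90.3 ± 7.40 CPM in sgXIST7, and 68.7 ± 3.46 and 73.2 ± 9.61 CPM in sgXIST9. Its hypoxia log2 fold changes of 0.17, 0.19 and 0.09 did not pass (adjusted p = 0.166, 0.114 and 0.476). Neither did the differences of 0.31 in normoxia (adjusted p = 0.0358) and 0.33 in hypoxia (adjusted p = 0.0155) between sgXIST7 and sgCtl, although those libraries did not overlap. The hypoxia difference passed without sgXIST7 hypoxia library 1 (0.39, adjusted p = 0.0087). On all libraries it passed by DESeq2 (0.33, adjusted p = 0.00605) and with the replicate number as a block (0.33, adjusted p = 0.009).

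Whether the hypoxia response itself differed between clones was tested with interaction contrasts. For sgXIST7 against sgCtl, 3 members passed (2.17% of all genes). TFRC responded more in sgXIST7 by 1.45 on the log2 scale (SE 0.23, adjusted p = 0.00189), and this passed under each alternative run. SLC11A2 responded more positively by 1.21 (SE 0.23, adjusted p = 0.00571). STEAP3 responded more negatively, with a difference of -0.93 (SE 0.19, adjusted p = 0.00848). The SLC11A2 and STEAP3 calls were each lost in 10 of the 12 fits that left out a library of sgCtl or sgXIST7, all but those without sgCtl hypoxia library 3 or sgXIST7 hypoxia library 1, with values of 1.00 to 1.24 (adjusted p = 0.011 to 0.0178) and -0.97 to -0.81 (adjusted p = 0.0143 to 0.0284). Both were also lost with only the groups compared in the fit (1.21, adjusted p = 0.0168, and -0.93, adjusted p = 0.0245). Without the hypoxia libraries numbered 3, 5 members passed, with FTL (0.96, adjusted p = 0.000139, against 0.64, adjusted p = 0.0499, in all libraries) and IREB2 (0.74, adjusted p = 0.00776, against 0.50, adjusted p = 0.16) added. Leaving out sgCtl hypoxia library 3 alone also gave 5, with FTL at 0.85 (adjusted p = 0.00141) and IREB2 at 0.73 (adjusted p = 0.00984).

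For sgXIST9 against sgCtl, 0 members passed by edgeR and 0 by DESeq2 (1.26% of all genes by edgeR), with 2 at an unadjusted p under 0.05. SLC11A2 came closest, with a difference of 0.73 (SE 0.23, adjusted p = 0.0729), which passed without the hypoxia libraries numbered 3 (0.78, adjusted p = 0.0061). Between the KD clones, 0 members passed by edgeR and 2 by DESeq2 (0.174% of all genes by edgeR), with 3 at an unadjusted p under 0.05. TFRC differed by 0.97 (SE 0.23, adjusted p = 0.0463) and STEAP3 by -0.83 (SE 0.19, adjusted p = 0.0425), and both passed without the hypoxia libraries numbered 3 (0.91, adjusted p = 0.00452, and -0.81, adjusted p = 0.00388), as did FTL (0.65, adjusted p = 0.00881). TFRC also passed without sgXIST7 hypoxia library 1 (1.15, adjusted p = 0.0057). The members passed by DESeq2 on all libraries were TFRC (1.02, adjusted p = 0.00309) and STEAP3 (-0.78, adjusted p = 0.00328), so that whether these responses differed between the KD clones depended on the tool.

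**Figure D4:**
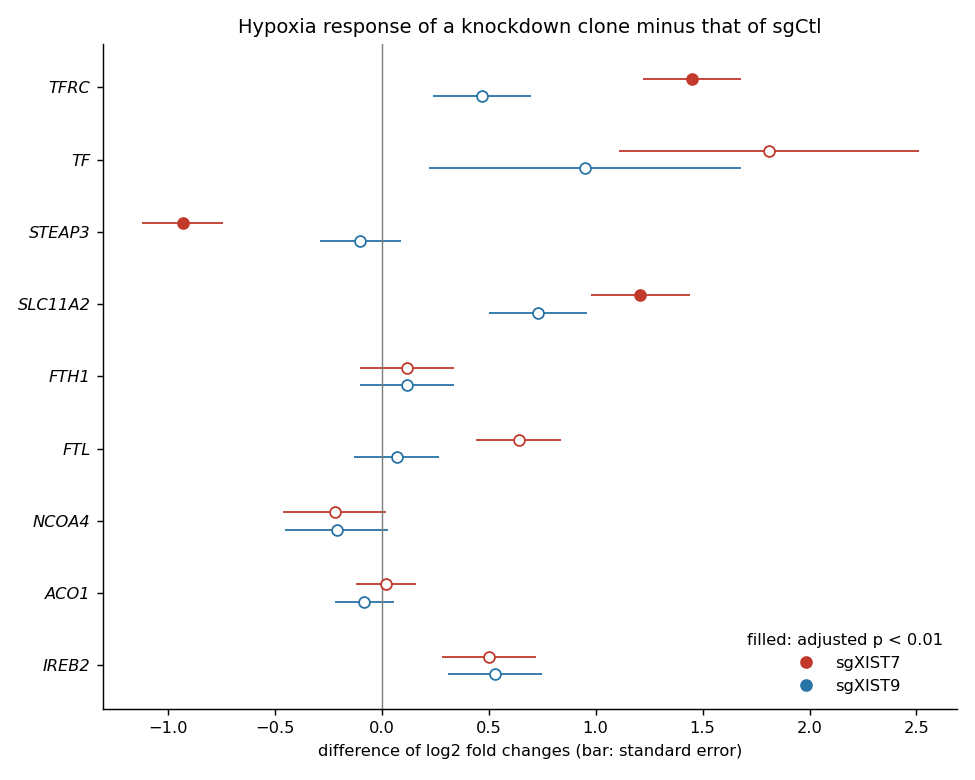
Difference between the hypoxia log2 fold change of a KD clone and that of sgCtl (x axis, with standard errors) for 9 iron genes; filled points passed the adjusted p of 0.01. SLC40A1 is left out because of its low KD counts. TFRC, SLC11A2 and STEAP3 passed in sgXIST7 with values of 1.45, 1.21 and -0.93, and none passed in sgXIST9.

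Levels of the KD clones were also set against each other. In normoxia, 2 members differed between sgXIST7 and sgXIST9 (4.97% of all genes), STEAP3 and FTL. In hypoxia, 0 passed by edgeR (8.43% of all genes) and 2 by DESeq2 (TFRC and ACO1), with 5 at an unadjusted p under 0.05. TFRC was closest, with a log2 difference of 0.63 (SE 0.16, adjusted p = 0.0124), and TF followed with 1.36 (SE 0.39, adjusted p = 0.0229). TFRC passed without the hypoxia libraries numbered 3 (0.57, adjusted p = 0.00556), without sgXIST7 hypoxia library 1 (0.82, adjusted p = 0.000927) and without sgXIST9 hypoxia library 3 (0.78, adjusted p = 0.00381). SLC11A2 passed without sgXIST7 hypoxia library 1 (0.60, adjusted p = 0.00855), against 0.42 in all libraries (adjusted p = 0.0815). ACO1 passed without sgXIST9 hypoxia library 3 (0.41, adjusted p = 0.00822), against 0.30 in all libraries (adjusted p = 0.0464).

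Ratios of counts within a library do not depend on the scaling between libraries. The ratio of FTL to FTH1 counts was 3.19, 3.19 and 4.19 in sgCtl normoxia and 6.23, 5.60 and 10.6 in sgCtl hypoxia. It was 1.77, 1.27 and 1.72 in sgXIST7 normoxia and 4.50, 4.44 and 5.08 in hypoxia, and 3.53, 3.85 and 3.63 in sgXIST9 normoxia and 5.93, 8.53 and 8.0 in hypoxia. Hypoxia lay above normoxia without overlap in each clone, a ratio of means of 2.12, 2.95 and 2.04, and the exact permutation p was 0.1 in each, the smallest that 3 libraries against 3 can give. sgXIST7 lay below the other clones under both conditions. The ratio of IREB2 to ACO1 counts fell from 1.67 ± 0.286 to 0.534 ± 0.121 in sgCtl (SD, n = 3, exact p = 0.1), from 1.51 ± 0.155 to 0.682 ± 0.043 in sgXIST7 (exact p = 0.1) and from 1.45 ± 0.115 to 0.713 ± 0.0374 in sgXIST9 (exact p = 0.1), so that ACO1 had more counts than IREB2 in every hypoxia library and fewer in every normoxia library.

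The ratio of TFRC to FTL counts, a receptor for uptake against a chain for storage, was 0.425, 0.382 and 0.352 in sgCtl normoxia and 0.198, 0.219 and 0.138 in sgCtl hypoxia. In sgXIST7 it was 0.828, 0.770 and 0.921 in normoxia and 0.450, 0.646 and 1.02 in hypoxia, and in sgXIST9 0.555, 0.472 and 0.548 in normoxia and 0.329, 0.243 and 0.406 in hypoxia. Both KD clones lay above sgCtl under both conditions without overlap (exact permutation p = 0.1 in each, n = 3). Hypoxia lowered the mean ratio in sgCtl to 0.478 of normoxia and in sgXIST9 to 0.622 without overlap (exact p = 0.1 in each), while the sgXIST7 libraries overlapped (0.839 of normoxia, exact p = 0.5). Against the other ferritin chain the ratio ran differently. TFRC to FTH1 counts were 1.35 ± 0.127 in sgCtl normoxia, 1.34 ± 0.321 in sgXIST7 and 1.92 ± 0.092 in sgXIST9 (SD, n = 3), so that sgXIST9 and not sgXIST7 lay above sgCtl without overlap. In hypoxia they were 1.31 ± 0.134, 3.35 ± 1.63 and 2.43 ± 0.717, and both KD clones lay above sgCtl (exact permutation p = 0.1 in each, n = 3). The ratio of STEAP3 to TFRC counts was 0.267 ± 0.0235 in sgXIST7 normoxia and 0.0288 ± 0.0133 in sgXIST7 hypoxia (SD, n = 3, exact p = 0.1). In sgCtl it was 0.196 ± 0.02 and 0.101 ± 0.012 (exact p = 0.1), and in sgXIST9 0.111 ± 0.0116 and 0.0401 ± 0.0126 (exact p = 0.1), so that in normoxia sgXIST7 lay above sgCtl and sgXIST9 below it.

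**Figure D5:**
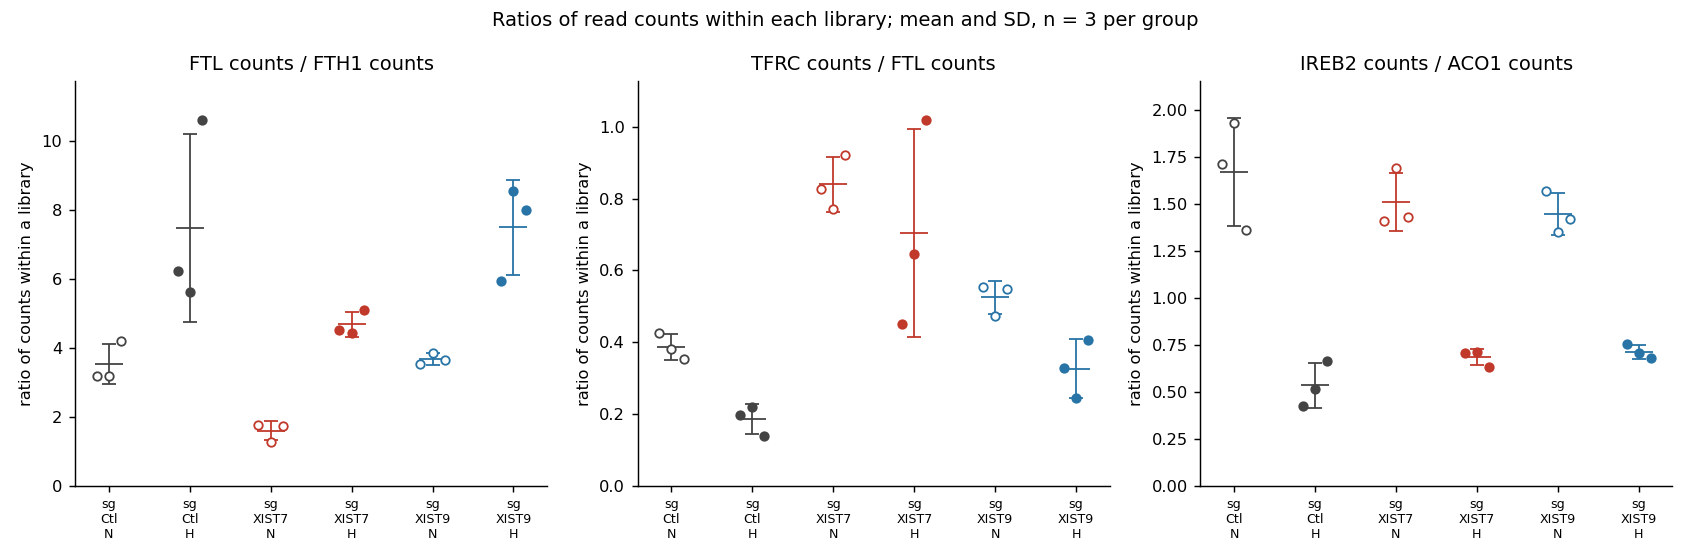
Ratios of read counts within each library (y axes, starting at 0) for FTL to FTH1, TFRC to FTL and IREB2 to ACO1, in normoxia (N, open points) and hypoxia (H, filled points); the lines and bars are the mean and SD of 3 libraries. FTL to FTH1 was higher and IREB2 to ACO1 lower in hypoxia in every clone, whereas TFRC to FTL was higher in both KD clones than in sgCtl under each condition.

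Of 73 other iron and heme genes listed, 61 passed the filter on low counts. In hypoxia 11 rose and 12 fell in sgCtl (18.8% and 18.8% of all genes), 15 rose and 12 fell in sgXIST7 (23.5% and 23.2%), and 12 rose and 17 fell in sgXIST9 (23.1% and 19%), with medians of 0.03, -0.08 and -0.06 on the log2 scale. Of 9 genes for uptake and reduction of iron, 3, 6 and 4 rose and none fell in sgCtl, sgXIST7 and sgXIST9 by edgeR. Of 26 genes of mitochondrial iron and iron-sulfur cluster assembly, 3, 4 and 2 rose and 8, 7 and 12 fell. Of 16 heme genes, 2, 2 and 4 rose and 4, 5 and 5 fell. HMOX1, the heme oxygenase that frees iron from heme, had 41.2 ± 5.89 CPM in sgCtl normoxia and 332 ± 107 CPM in hypoxia (SD, n = 3), and it rose by 3.01, 1.76 and 2.23 on the log2 scale in sgCtl, sgXIST7 and sgXIST9 (adjusted p = 1.49e-07, 1.91e-05 and 2.35e-06). EPAS1 (HIF-2 alpha), whose 5′ UTR is known to hold an IRE, rose by 2.29, 2.93 and 1.25 (adjusted p = 2.23e-07, 3.78e-09 and 3.09e-05). The scavenger receptor LRP1 rose by 2.0, 3.22 and 3.16 (adjusted p = 0.00645, 0.000142 and 0.000215). LRP2 (megalin), a receptor that can take up transferrin, had at most 1 count in a normoxia library and was at least 6.61-fold, 50.4-fold and 47.5-fold higher in hypoxia. It belongs to the uptake genes above and passed the filter on low counts through hypoxia libraries only, so that it could only rise. Without the hypoxia library numbered 3, the LRP2 bound in sgXIST9 was 21-fold, LRP1 in sgXIST9 hypoxia was 5.92 times its normoxia mean against 8.94 times with it, and the mean of LRP1 in sgCtl hypoxia was 2.4 times that of normoxia, against 4 times with it. BMP6 rose in sgCtl (2.36, adjusted p = 0.00836), at 4 to 35 counts in hypoxia, with values of 1.81 and 1.10 in sgXIST7 and sgXIST9 that did not pass (adjusted p = 0.0307 in sgXIST7). The heme transporter family member FLVCR2 rose in sgXIST9 (2.73, adjusted p = 0.000285), with values of 1.23 and 1.56 in sgCtl and sgXIST7 that did not pass (adjusted p = 0.0413 and 0.0196). Mean FLVCR2 in sgCtl, sgXIST7 and sgXIST9 was 2.74, 0.775 and 1.0 CPM in normoxia and 6.40, 2.24 and 6.62 CPM in hypoxia. Neither BMP6 nor FLVCR2 passed a test of the difference between clones.

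In the KD clones, 2 of the 61 genes were higher and 6 lower than sgCtl in sgXIST7 normoxia (7.39% and 6.1% of all genes), and 7 and 6 in sgXIST9 normoxia (6.51% and 6.6%). In hypoxia 6 were higher and 11 lower in sgXIST7 (13.9% and 13.7%), and 6 and 7 in sgXIST9 (9.65% and 8.24%). SLC39A8 (ZIP8), a zinc and iron importer, was 186 ± 10.4 CPM in sgCtl normoxia, 7.56 ± 0.326 CPM in sgXIST7 and 16.4 ± 0.585 CPM in sgXIST9 (SD, n = 3). Its log2 fold changes were -4.62 and -3.50 in normoxia (adjusted p = 1.56e-11 and 1.82e-10) and -2.80 and -2.61 in hypoxia (adjusted p = 3.27e-09 and 6.54e-09). HMOX1 was lower in both KD clones in hypoxia (-1.93 and -1.99, adjusted p = 1.87e-05 and 1.63e-05), where BLVRB, another gene of the heme list, was higher (1.83 and 1.55, adjusted p = 0.00059 and 0.00291). The HMOX1 libraries of both KD clones also lay below those of sgCtl in normoxia. Its normoxia means were 25.9 ± 0.976 CPM in sgXIST7 and 17.8 ± 1.48 CPM in sgXIST9 against 41.2 ± 5.89 CPM in sgCtl. EPAS1 was higher in both in normoxia (1.12 and 1.90, adjusted p = 0.000879 and 3.29e-06). The plasma membrane ferrireductase CYBRD1 was lower in sgXIST7 normoxia (-1.77, adjusted p = 4.95e-05). In hypoxia the KD clones lay on opposite sides of sgCtl (15.4 ± 1.51 CPM) without overlap. CYBRD1 was lower in sgXIST7 (8.28 ± 3.96 CPM) and higher in sgXIST9 (41.3 ± 7.33 CPM) there. STEAP1 was higher in sgXIST9 normoxia (3.30, adjusted p = 0.000264).

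The patterns of the members with the widest span over the group means were compared with those of all other genes tested, over 18 libraries on the log2 CPM scale. Pearson's r describes the likeness only, since libraries of a group share their clone and oxygen. SLC40A1 was most like DOK6 (0.974), ZNF704 (0.970) and SEMA3D (0.967). TF was most like ITM2B (0.952), ZFAT (0.935) and FAM13B (0.934), and FTL was most like SLC35F5 (0.971), APLF (0.962) and FBXL19 (0.961).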

How the data were processed

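Counts were deposited by the authors as whole numbers per gene and library, without normalization. The authors depleted ribosomal RNA, made stranded total RNA libraries, sequenced paired ends, trimmed with Trimmomatic, checked quality with FastQC, aligned to hg38 with HISAT2 and counted with featureCounts. Tool versions, the annotation and the strand setting were not given in the sources used here. Gene length in kb is the authors' value in the same table. Of 28279 lines, 2 broken records were left out.

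The quasi-likelihood test of edgeR 4.0.16 was run in R 4.3.3 (with limma 3.58.1 loaded) on 1 model of the 6 groups, with TMM factors, filterByExpr (minimum count 10, minimum total 15) and a prior count of 0.125. It kept 14938 genes, over which p-values were adjusted by Benjamini-Hochberg. The test was passed at an adjusted p under 0.01, and a gene was called with an absolute log2 fold change above 1 as well. DESeq2 1.42.0 and the settings of the closing section were alternatives. Shares of all genes come from the main edgeR fit and were not determined for the alternatives. The scripts were tested on simulated data. The study describes 3 biological replicates, but where libraries came from 1 clone, p-values measure the spread between them, which may be technical. Total counts of 11794375 to 24906936 limit precision for TF and SLC40A1 above all. Counting error alone is covered by the floor of 3 counts.

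The members and lists were chosen with earlier results of these data known. All members are named. Other iron genes are named when called in at least 1 of 7 comparisons, up to 3 per comparison. Likeness is given for the 3 members with the widest span. The contrast of the hypoxia responses of the KD clones, the sum of FTH1 and FTH1P3 counts and the folds of LRP1 and LRP2 without the hypoxia libraries numbered 3 were added after seeing the data. Replicate numbers paired libraries, by every correlation of deviations being over 0.1, only for sgCtl with sgXIST7 in normoxia (0.15 to 0.38) and sgCtl with sgXIST9 in hypoxia (0.20 to 0.57). The pairing comes from the data, since no label names a shared day or culture.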

Additional observations from a re-analysis of the deposited data

Results flagged for a closer look

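The hypoxia response of 3 members differed between sgXIST7 and sgCtl by the interaction test in edgeR. TFRC responded more in sgXIST7 by 1.45 on the log2 scale (SE 0.23, adjusted p = 0.00189), and all 3 sgXIST7 hypoxia libraries lay above all normoxia libraries of that clone while those of sgCtl overlapped. SLC11A2 differed by 1.21 (SE 0.23, adjusted p = 0.00571), with all 3 sgCtl hypoxia libraries below the sgCtl normoxia libraries and overlap in sgXIST7. STEAP3 differed by -0.93 (SE 0.19, adjusted p = 0.00848), with hypoxia libraries below normoxia libraries in both clones. The SLC11A2 and STEAP3 calls were each lost in 10 of 12 fits that left out a library and with only the groups compared in the fit (adjusted p = 0.0168 and 0.0245), whereas the TFRC call was not lost in any setting run. These differences compare 1 clone with 1 clone, and guide and clone cannot be told apart.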

How the results depend on the processing

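The 12 counts of members past the test were recomputed under each setting, and 169 of these counts stayed within 1.5 times while 38 did not. For the response difference of sgXIST7 and sgCtl (3 members) the count was 1 with only the groups compared in the fit, 5 without the hypoxia libraries numbered 3 and 1 to 5 when single libraries were left out. For sgXIST7 and sgXIST9 (0) it was 2 by DESeq2, 2 at an adjusted p of 0.05, 3 without the libraries numbered 3 and 0 to 1 over single libraries, and for sgXIST9 and sgCtl (0) 1 without the libraries numbered 3. For sgXIST7 against sgCtl in hypoxia (7) it was 4 with the fold threshold and 3 with only the groups compared, and for sgXIST9 (3) 5 by DESeq2 and 6 at 0.05. For sgXIST9 against sgCtl in normoxia (4) it was 2 with RLE factors, 1 with the fold threshold and 2 over single libraries. For sgXIST7 against sgXIST9 it was 1 with the fold threshold in normoxia (2), and in hypoxia (0) 2 by DESeq2, 1 without the filter, 1 with the replicate block, 4 at 0.05, 1 without the libraries numbered 3 and 0 to 2 over single libraries. The cause was not tested. Where replicate numbers did not pair the libraries, the replicate block changed 5 calls: it lost FTL in sgXIST9 against sgCtl in normoxia (-0.54, adjusted p = 0.0109) and added the hypoxia response of NCOA4 in sgXIST7 (0.53, adjusted p = 0.00461) and sgXIST9 (0.55, adjusted p = 0.00401), ACO1 in sgXIST7 against sgCtl in hypoxia (0.33, adjusted p = 0.009) and TFRC in sgXIST7 against sgXIST9 in hypoxia (0.63, adjusted p = 0.00567). Among these comparisons every library correlated best with its own number only between sgCtl normoxia and sgCtl hypoxia (0.09 to 0.11), a hint from the data and not from the design. Where the numbers did pair, the block changed only the call of FTH1 in sgXIST9 against sgCtl in hypoxia (-0.49, adjusted p = 0.00576). Values that changed sign were all near 0 and did not pass in any of those settings. The hypoxia response of FTH1 in sgCtl was 0.01 by DESeq2, RLE factors, a mean CPM filter and only the groups compared, 0.02 with upper-quartile factors and 0.08 without the libraries numbered 3. Without these, ACO1 was -0.01 for the hypoxia response of sgXIST9 and -0.05 in sgXIST9 against sgCtl in hypoxia, where DESeq2 and RLE factors gave -0.01. STEAP3 in sgXIST7 against sgCtl in normoxia was 0.00 with upper-quartile factors. Leaving out single libraries gave ranges across 0 for the hypoxia responses of ACO1 in sgXIST9 (-0.01 to 0.17) and of FTH1 in sgCtl (-0.06 to 0.08) and sgXIST9 (-0.05 to 0.20), and for ACO1 in sgXIST9 against sgCtl in hypoxia (-0.09 to 0.10), IREB2 in sgXIST9 against sgCtl in normoxia (-0.18 to 0.01), NCOA4 in sgXIST7 (-0.10 to 0.24) and sgXIST9 (-0.04 to 0.24) against sgCtl in hypoxia, and STEAP3 and TF in sgXIST7 against sgCtl in normoxia (-0.03 to 0.06 and -0.41 to 0.13). With few counts, depth limits TF in normoxia and SLC40A1 in the KD clones.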
